A study of Rattus rattus with 12 samples.

Results

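A set of 258 transcripts of rat perigonadal fat had a higher level 14 days after an injection of ice slurry than in untreated fat, while their mean level at day 3 was near that of untreated fat. They are 258 of the 46726 transcripts listed and of the 14560 that passed the filters on low and very high levels. The members were selected on their measured TPM values in the control, day 3 and day 14 libraries, so their levels in these 3 groups, and any test between them, are given as a description of the members. TPM is the share of a library's reads given to a transcript, corrected for its length and scaled so that all transcripts of a library sum to 1000000. A member had more than 3 estimated reads in all 12 libraries, a highest group mean of at least 5 TPM and was not among the 100 transcripts with the highest mean TPM in control. Its ratio, the group mean of TPM + 1 over that of control, was at least 2 at day 14 and between 0.67 and 1.5 at day 3, and each of the 3 day 14 libraries was above each of the 3 control libraries.

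RNA sequencing measured polyadenylated RNA of perigonadal adipose tissue, the visceral fat beside the gonads, from male Sprague-Dawley rats. The rats were 8 weeks old and weighed 200 g at the start, ate food with 60 kcal% fat for 9 weeks before treatment, and stayed on it afterwards. Control libraries came from fat that received no slurry. For the other 3 groups, 10 ml of slurry, a suspension of ice particles, was injected through an abdominal incision into the fat of 1 side, and tissue was taken 1, 3 or 14 days later. Each group had 3 libraries. According to the methods of the study the untreated side was the control, and the labels do not give the animal or the day after surgery of a control library. Which control and slurry libraries came from the same rat is therefore not known, and an effect of the slurry cannot be told apart from one of the incision or injection.

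Adipose tissue holds lipid-filled adipocytes together with stromal, vascular and immune cells. Adipocytes are more sensitive to cold than the cells around them, and cooling of fat can lead to their death and to inflammation, a process used in cryolipolysis. Injured tissue commonly passes through early inflammation, clearance of dead cells and later repair with deposition of matrix, so that different transcripts can be high at different times after an injury.

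The total estimated count was between 20466915 and 28802360 per library. The values belong to transcripts, which are the spliced forms of a gene. The reads of 1 gene are divided among its forms by Salmon, and a value of 1 transcript is not the level of its gene. The transcripts carry Ensembl identifiers without gene names. The RefSeq table at hand, of 32100 genes, was for Rattus rattus and did not pair Ensembl rat transcripts with genes. Accordingly 0 of the 46726 identifiers were found in it, which says nothing about the transcripts themselves. No member was given a gene name, and markers of cell types were not analysed here. In a sample of whole tissue, more cells of a type and more RNA per cell cannot be told apart.

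Of the 14560 transcripts that passed the filters, 830 (5.70%) met the day 14 condition. Among these, 258 had a day 3 ratio within the chosen range and were the members, 561 had a day 3 ratio above 1.5, and 11 were under 0.67. The name of a set raised at day 14 alone did not hold for each member. The highest group mean was at day 14 in 254 members and at day 1 in 4, and the ratio at day 1 was above 1.5 in 48. The lowest group mean was that of control in 154 members, of day 1 in 75 and of day 3 in 29.

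The ratio of day 14 to control ranged from 2.0 to 41.1, with a median of 2.48 and quartiles of 2.20 and 3.03. It was between 2 and 3 in 188 members, between 3 and 5 in 53, and at least 5 in 17. Most members therefore lay near the lower limit of the rule. The mean level in control had a median of 4.71 TPM over the members, against 14.6 TPM over the 14560 transcripts, and was under 5 TPM in 131 members. At day 14 the median of the mean levels was 15.1 TPM for the members and 16.3 TPM for all. A mean of at least 100 TPM at day 14 was found in 23 members. The lowest estimated count of a member in any library had a median of 95.6 over the members, was 3.07 at the lowest and was under 10 in 15 members.

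The day 3 ratio, which the rule held in its range, had a median of 1.21. The median over all 14560 transcripts was 1.19. At day 1 these medians were 1.15 for the members and 1.14 for all, and at day 14 they were 2.48 and 1.06. TPM carried a general shift, since the median change of all 14560 transcripts on the log2 scale was 0.19 at day 1, 0.25 at day 3 and 0.08 at day 14. In CPM, counts scaled to 1000000 per library with TMM, a library-size correction computed from the bulk of the transcripts, the shift was 0.03, 0.02 and -0.07. The members' median ratio on that scale was 1.06 at day 1, 1.05 at day 3 and 2.32 at day 14. Of the 258 members, 204 had a ratio of at least 2 at day 14 on it, and 243 lay between 0.67 and 1.5 at day 3.

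The single libraries were followed with the median over the members of the log2 ratio of TPM + 1 to the control mean. It was -0.17, 0.10 and 0.03 in control replicates 1 to 3, and 0.24, 0.33 and 0.07 at day 3. At day 14 it was 1.5, 1.39 and 1.04. The day 14 libraries stood above the other 9, as the choice of members required against control, and replicate 3 was the lowest of the 3. At day 1 the median was -0.27, 0.32 and 0.38, so that replicate 1 lay below each control library and replicates 2 and 3 lay above each of them. Over all 14560 transcripts the day 1 medians were 0.16, 0.06 and 0.26, and replicate 1 was not the lowest.

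**Figure D1:**
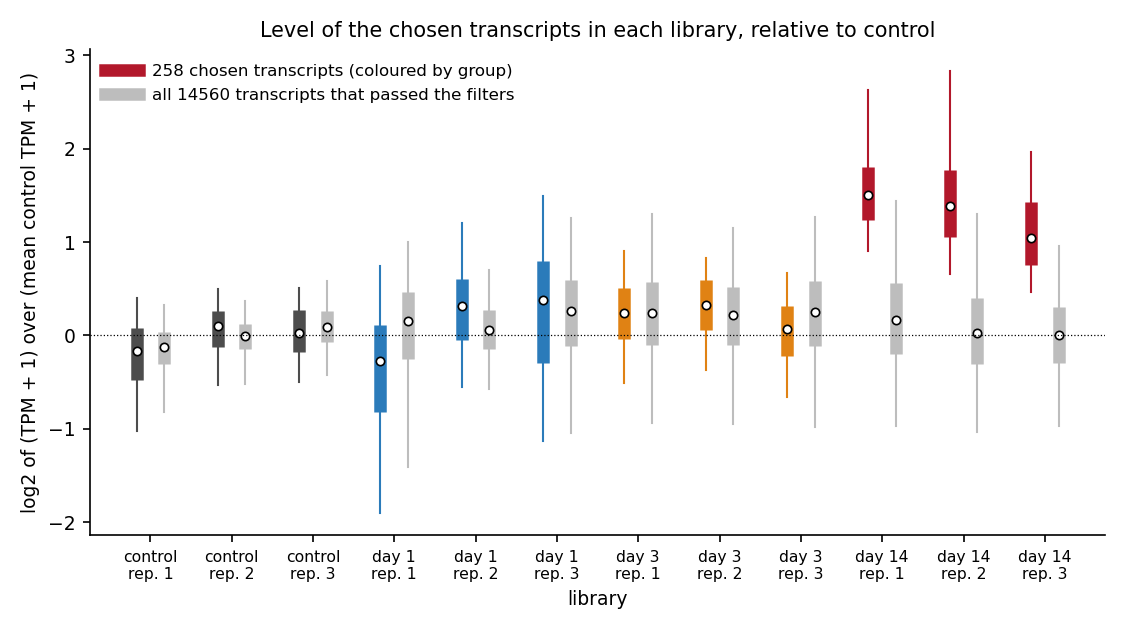
Level of the 258 members (coloured by group) and of all 14560 transcripts that passed the filters (grey) in each of the 12 libraries, as the log2 ratio of TPM + 1 to the mean of the control libraries; circles are medians, thick bars run between the quartiles and thin lines from the 5th to the 95th percentile. The members' medians are 1.5, 1.39 and 1.04 in the day 14 libraries and lie between -0.27 and 0.38 in the other 9.

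Within day 14, replicate 3 had the lowest TPM of the group in 154 members (59.7%), against 47.4% of the 14560 transcripts. Within day 1, replicate 1 was the lowest of its group in 183 members (70.9%), against 37.4% of all. This was not particular to the members, since the share was 65.3% in the 830 transcripts that met the day 14 condition, which include them. Replicate 1 of day 1 was also the lowest of the 12 libraries in 92 members (35.7%), against 13.2% of all and 23.4% of the 830. The rule partly set the contrast with all transcripts, since no day 14 library could be the lowest of a member. Over all transcripts the day 14 libraries were the lowest of the 12 in 5.84%, 10.3% and 15.0%. The highest TPM + 1 of a group exceeded the lowest by a median factor of 1.62 within control, 1.99 within day 1, 1.5 within day 3 and 1.77 within day 14. The members thus varied most among the day 1 libraries. Over all 14560 transcripts the factor was 1.39, 1.55, 1.28 and 1.44 in the same order.

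The summed level of the 258 members shows the same libraries apart. It was 4471, 4722 and 4768 TPM in the control libraries and 4937, 5313 and 4759 TPM at day 3. At day 14 it was 15121, 15113 and 10296 TPM, which is 13510 ± 2783 TPM (SD, n = 3) against 4654 ± 160 TPM (SD, n = 3) in control. The members held between 0.447% and 0.477% of the TPM of a control library and between 1.03% and 1.51% of a day 14 library. At day 1 the sums were 3083, 6065 and 6308 TPM, with replicate 1 below the control libraries and replicates 2 and 3 above them. A few transcripts carried much of each sum. The most abundant member at day 14 made up 20.4%, 19.3% and 20.2% of it in control and 15.0%, 18.8% and 13.0% at day 14. Without the 6 members with the highest mean at day 14, the sum was between 2740 and 3178 TPM in the control libraries and between 6875 and 9266 TPM at day 14.

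The member with the largest ratio was ENSRNOT00000012532.5, a transcript of 1400 bases. Its level was 10.1, 10.1 and 7.06 TPM in control, 0.630, 20.5 and 8.13 TPM at day 1, 7.13, 10.2 and 11 TPM at day 3, and 475, 578 and 191 TPM at day 14. The day 14 libraries were far above the other 9, whereas the day 1 libraries spread to both sides of control. Its mean was 9.12 ± 1.78 TPM in control and 414 ± 200 TPM at day 14 (SD, n = 3 each), a ratio of 41.1. No other member reached a ratio above 11.5.

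That next value belonged to ENSRNOT00000064282.3, at 0.960, 0.447 and 0.180 TPM in control, 0.106, 1.21 and 0.230 TPM at day 1, 0.218, 0.823 and 0.473 TPM at day 3, and 33.0, 9.16 and 7.57 TPM at day 14. It was low before day 14, with 5 estimated reads in its lowest library, and its day 14 libraries differed among themselves by a factor of 4.36. Its log2 change at day 14 in edgeR was 4.70, and 3.81 without replicate 1 of day 14 and 5.52 without replicate 1 of control. ENSRNOT00000116489.1 had 3.63, 3.24 and 1.87 TPM in control, 3.40, 4.64 and 2.93 TPM at day 1, 3.81, 5.58 and 2.27 TPM at day 3, and 22.8, 82.9 and 15.8 TPM at day 14. Its control, day 1 and day 3 libraries overlapped, and replicate 2 was by far the highest of day 14. The ratio at day 14 was 10.6, and the log2 change in edgeR moved from 3.62 to 2.5 without replicate 2 of day 14.

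ENSRNOT00000119589.1, with a ratio of 9.92, had 0.804, 2.41 and 1.61 TPM in control, 1.12, 0.997 and 1.32 TPM at day 1, 0.736, 2.66 and 1.07 TPM at day 3, and 22.3, 43.6 and 8.82 TPM at day 14. ENSRNOT00000114401.1 (ratio 9.26) had 0.360, 3.73 and 1.21 TPM in control, 1.52, 5.70 and 15.1 TPM at day 1, 3.06, 4.97 and 1.27 TPM at day 3, and 25, 39.4 and 9.43 TPM at day 14. The former stayed near its control level on both earlier days. In the latter, replicate 3 of day 1 was higher than replicate 3 of day 14, so that these groups overlapped. The log2 change at day 14 in edgeR moved from 3.81 to 3.07 without replicate 2 of day 14 for the former, and from 3.65 to 4.87 without replicate 2 of control for the latter. At day 1 that of the latter moved from 1.87 to 0.92 without replicate 3 of day 1 and to 3.09 without replicate 2 of control. ENSRNOT00000005251.8 (ratio 7.71) had 2.21, 8.22 and 3.69 TPM in control, 5.03, 9.33 and 7.12 TPM at day 1, 9.07, 4.35 and 4.24 TPM at day 3, and 56.9, 51.5 and 20.5 TPM at day 14. Its 3 earlier groups overlapped one another and lay below each day 14 library, with a log2 change in edgeR of 3.02, or 3.71 without replicate 2 of control.

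ENSRNOT00000028651.9 (ratio 7.47) owed its day 14 mean to 1 library, with 3.62, 35.3 and 4.29 TPM at day 14 against 1.19, 1.68 and 0.325 TPM in control. Its levels were 1.47, 1.9 and 1.76 TPM at day 1 and 0.421, 1.32 and 0.255 TPM at day 3. The factor of 9.74 between its day 14 libraries was the largest of the 258 members, whose median factor was 1.88, and its log2 change in edgeR moved from 3.59 to 1.69 without replicate 2 of day 14. ENSRNOT00000061422.3 (ratio 7.17) was abundant already in control, at 40.3, 65.7 and 44.3 TPM, and had 35.9, 92.6 and 101 TPM at day 1, 66.9, 87.0 and 44.5 TPM at day 3, and 399, 512 and 186 TPM at day 14. Both of these had each day 14 library above the other 9. Replicate 3 was the lowest day 14 library in 7 of the 8 members with the largest ratios, the exception being ENSRNOT00000028651.9.

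**Figure D2:**
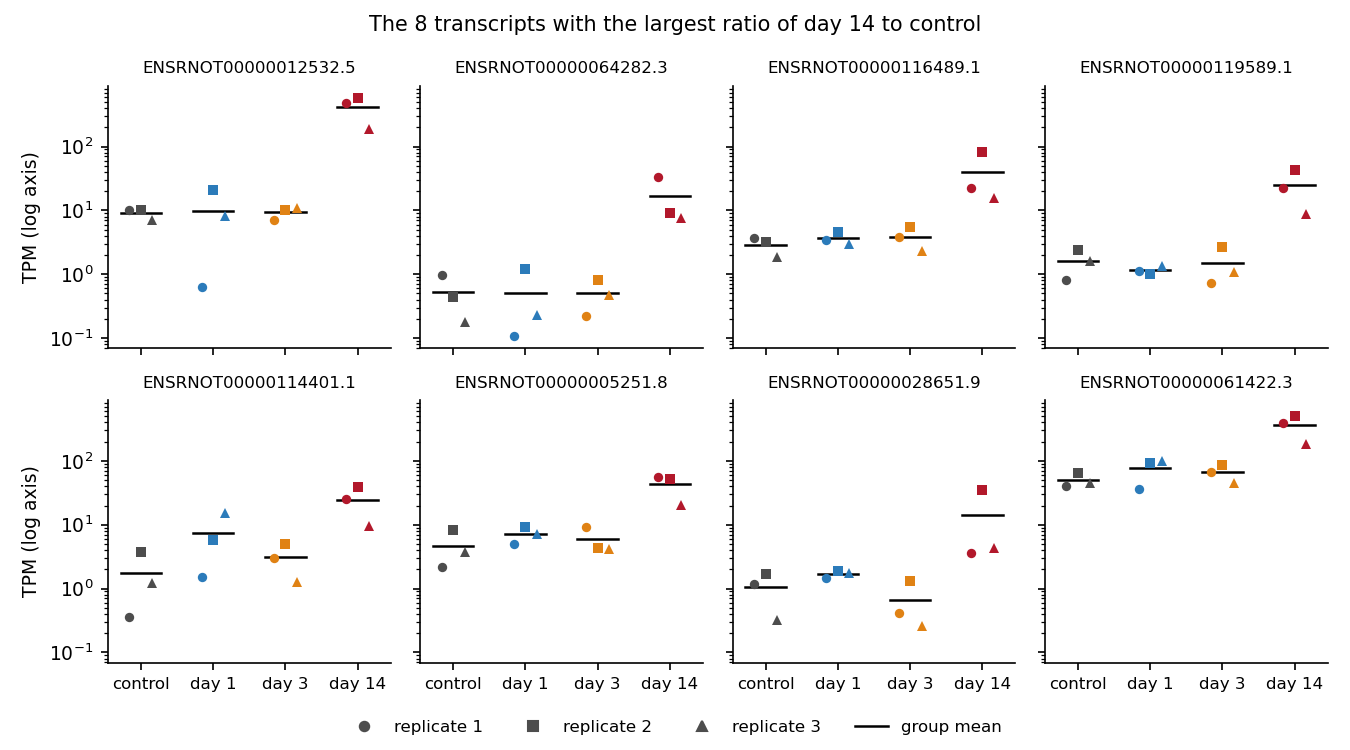
TPM on a log axis of the 8 members with the largest ratio of day 14 to control, with 1 symbol per library (circle, square and triangle for replicates 1, 2 and 3) and a line at the mean of each group of 3. Day 14 lies above control in each panel by the choice of members, from a ratio of 41.1 for ENSRNOT00000012532.5 to 7.17 for ENSRNOT00000061422.3, and the spread among day 1 libraries is widest for ENSRNOT00000012532.5.

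By mean level at day 14, ENSRNOT00000078910.2 was the highest member. It had 912, 910 and 961 TPM in control, 355, 853 and 764 TPM at day 1, 537, 871 and 549 TPM at day 3, and 2270, 2840 and 1340 TPM at day 14. The day 1 and day 3 libraries were below each control library and the day 14 libraries above, with means of 928 ± 28.8 TPM in control, 657 ± 265 TPM at day 1 and 2150 ± 760 TPM at day 14 (SD, n = 3 each). Its ratio was 0.709 at day 1, 0.703 at day 3 and 2.32 at day 14.

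ENSRNOT00000082548.2, next in level, had 403, 252 and 414 TPM in control, 37.0, 406 and 141 TPM at day 1, 494, 276 and 488 TPM at day 3, and 1720, 1110 and 722 TPM at day 14. ENSRNOT00000014807.7 followed with 254, 179 and 220 TPM in control, 39.2, 293 and 80.1 TPM at day 1, 210, 252 and 322 TPM at day 3, and 592, 509 and 716 TPM at day 14. In both, replicates 1 and 3 of day 1 were below each control library while replicate 2 was not, and the day 3 libraries overlapped with control. Their ratios at day 14 were 3.31 and 2.77. The other 3 of the 6 highest were ENSRNOT00000012532.5, ENSRNOT00000061422.3 and ENSRNOT00000027012.3. The last had 111, 127 and 72.7 TPM in control, 39.5, 152 and 129 TPM at day 1, 82.2, 195 and 101 TPM at day 3, and 402, 491 and 269 TPM at day 14. Its control, day 1 and day 3 libraries overlapped, and its ratio at day 14 was 3.72.

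Day 1 was not used to choose the members, except that it counted in the filter on reads and in the highest group mean. The comparison of day 1 with control does share the control libraries with the rule. The ratio at day 1 ranged from 0.429 to 6.99 with quartiles of 0.920 and 1.39, and lay between 0.67 and 1.5 in 200 members. It was above 1.5 in 48 members (18.6%) against 13.8% of the 14560 transcripts, and under 0.67 in 10 (3.88%) against 5.71%. The median of 1.15 was 1.29 without replicate 1 of day 1 and 1.06 without replicate 3.

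Per transcript, day 1 was tested against control with edgeR's quasi-likelihood test and Benjamini-Hochberg adjustment over 28016 transcripts, where a transcript was called if it changed by more than 2-fold and its adjusted p was below 0.05. Of the 258 members, 0 were called at day 1, against 0.00357% of all tested. The lowest adjusted p of a member in edgeR was 0.632, and 18 members (6.98%) had an unadjusted p under 0.05, against 7.77% of all tested. That count of members was 44 without replicate 2 of day 1 and 10 without replicate 3 of day 1. DESeq2 also called 0 members at day 1, against 1.44% of all tested, with 25 members (9.69%) at an unadjusted p under 0.05, against 11.3% of all tested. The day 1 libraries were all above the control libraries in 20 members (7.75%), against 12.9% of the 14560 transcripts. They were all below the control libraries in 7 members (2.71%), against 3.65%. Both shares were below those of all transcripts.

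The largest ratio at day 1 belonged to ENSRNOT00000090206.2, at 47.2, 55.9 and 66.7 TPM in control, 31.1, 113 and 1060 TPM at day 1, 151, 24.8 and 69.3 TPM at day 3, and 198, 226 and 165 TPM at day 14. Replicate 3 of day 1 was far above the other 11 libraries, and replicate 1 was below each control library. With a mean of 401 ± 572 TPM at day 1 against 56.6 ± 9.75 TPM in control (SD, n = 3 each), the ratio of 6.99 rested on that library, and the difference did not pass the test (log2 change 2.58, SE 1.04, adjusted p = 0.632 in edgeR). Without that library the log2 change was 0.24. The same library was the highest of the 12 in ENSRNOT00000051589.4 and ENSRNOT00000096550.1, whose ratios at day 1 were 3.40 and 3.23.

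ENSRNOT00000051589.4 had 0.557, 0.721 and 1.2 TPM in control, 0.437, 1.30 and 13.9 TPM at day 1, 2.39, 0.581 and 0.634 TPM at day 3, and 2.99, 3.06 and 1.94 TPM at day 14. ENSRNOT00000096550.1 had 1.10, 1.80 and 1.22 TPM in control, 0.961, 3.47 and 15.6 TPM at day 1, 3.65, 1.27 and 1.80 TPM at day 3, and 2.83, 4.19 and 5.45 TPM at day 14. In both, replicate 1 of day 1 was below each control library and replicate 3 above each day 14 library. Both reached a group mean of 5 TPM at day 1 alone, so that they entered the set through the group in which they were high, and their day 1 ratios are a description. Without replicate 3 of day 1, the log2 change at day 1 in edgeR moved from 2.43 to -0.02 for ENSRNOT00000051589.4 and from 2.04 to 0.57 for ENSRNOT00000096550.1. These 3 and ENSRNOT00000001108.6 were the 4 members with a higher mean at day 1 than at day 14. ENSRNOT00000001108.6, given here after its values were seen, had 2.54, 7.82 and 5.92 TPM in control, 18.3, 6.10 and 16.7 TPM at day 1, 5.23, 5.01 and 3.57 TPM at day 3, and 15.7, 10.4 and 11.7 TPM at day 14. Its day 1 libraries overlapped with both control and day 14.

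The smallest ratio at day 1 was 0.429, in ENSRNOT00000083085.2. It had 7.27, 4.05 and 25.7 TPM in control, 1.31, 6.08 and 6.80 TPM at day 1, 22.5, 1.35 and 18.9 TPM at day 3, and 103, 99.6 and 71.7 TPM at day 14. Control, day 1 and day 3 overlapped, and the 3 day 14 libraries were close to each other and above the other 9. Its log2 change at day 14 in edgeR was 2.77, or 3.70 without replicate 3 of control. Replicate 3 of control was well above the other control libraries. The change at day 1 did not pass the test (log2 change -1.52, SE 0.95, adjusted p = 0.67 in edgeR), and it was -0.56 without that control library. The next were ENSRNOT00000082548.2, described above, with a ratio of 0.547, and ENSRNOT00000011086.7 with 0.557. The latter had 2.13, 5.78 and 5.38 TPM in control, 1.6, 3.87 and 0.598 TPM at day 1, 5.41, 6.62 and 2.44 TPM at day 3, and 29.8, 10.1 and 19.3 TPM at day 14, with day 1 overlapping control through replicate 2. Without replicate 2 of day 1, the log2 change at day 1 in edgeR moved from -1.02 to -2.25 for ENSRNOT00000082548.2 and from -1.22 to -2.15 for ENSRNOT00000011086.7.

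ENSRNOT00000056414.5, a transcript of 10810 bases with a ratio of 0.571 at day 1, had 1.55, 1.88 and 3.54 TPM in control, 0.471, 1.44 and 0.777 TPM at day 1, 1.65, 2.65 and 1.41 TPM at day 3, and 13.7, 8.04 and 8.11 TPM at day 14. Each day 1 library was below each control library and day 3 overlapped with control. The log2 change at day 1 was -1.49 (SE 0.45), or -2.09 without replicate 2 of day 1, with an adjusted p of 0.632 in edgeR and 0.0701 in DESeq2. The latter was the lowest adjusted p of a member at day 1 in DESeq2.

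Groups of members picked by their own day 1 values are given as a description, and their day 1 medians follow from that choice. In 26 members (10.1%), chosen after their values were seen, replicates 1 and 3 of day 1 were below each control library and under 0.67 of the control mean, while replicate 2 was not below each control library. This held for 5.43% of the 14560 transcripts. Over these 26 members the median ratio was 0.437, 1.42 and 0.499 in the day 1 libraries and 3.21, 1.99 and 2.54 in the day 14 libraries. ENSRNOT00000082548.2 and ENSRNOT00000014807.7 were among them. The 48 members with a ratio above 1.5 at day 1 had medians of 1.18, 1.61 and 2.24 in the day 1 libraries and 2.88, 3.05 and 1.82 in the day 14 libraries. Replicate 3 was the lowest day 14 library in 70.8% of these 48 members and in 38.5% of the 26. The part of single libraries in these courses was not tested.

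**Figure D3:**
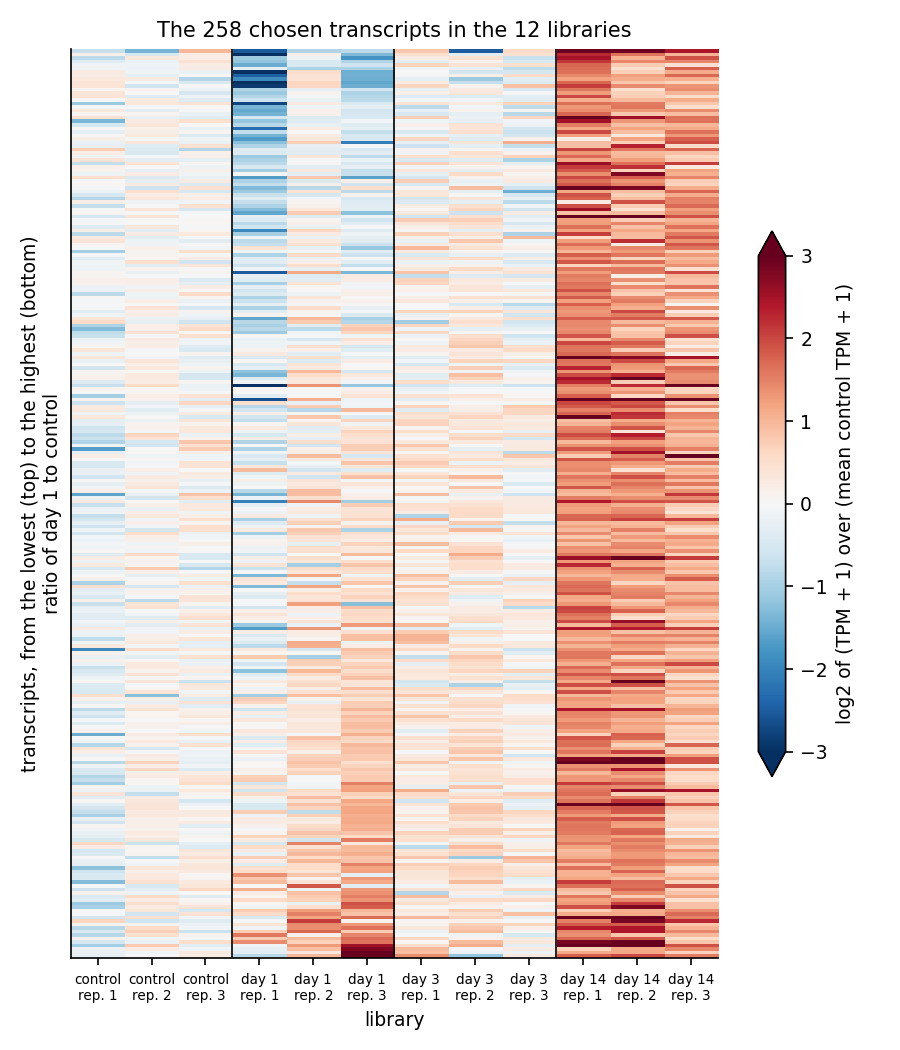
The 258 members in the 12 libraries, ordered from the lowest ratio of day 1 to control at the top to the highest at the bottom; colour gives the log2 ratio of TPM + 1 to the control mean, blue for lower and red for higher, and saturates at both ends of the scale. Day 14 is red in each row by the choice of members, replicate 1 of day 1 is blue in much of the upper part, and replicate 3 of day 1 is the reddest day 1 library in the lower part.

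The separation of day 14 from the 2 earlier days after slurry was partly set by the rule. Each day 14 library was above each day 1 library in 170 members (65.9%), against 8.90% of the 14560 transcripts. It was above each day 3 library in 206 members (79.8%), against 13.4%, and above the 9 other libraries together in 154 (59.7%), against 3.80%. In the other 104 members at least 1 day 1 or day 3 library reached a day 14 library. The mean of TPM + 1 at day 14 was a median of 2.33 times that at day 1 and 2.18 times that at day 3. The day 3 libraries were all above the control libraries in 39 members (15.1%), against 33.8% of all, and all below them in 6 (2.33%), against 11.4%, with both shares limited by the range the rule set at day 3.

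Of the members, 20 of 258 were called by edgeR as higher at day 14 against control and 145 by DESeq2, where 0.389% and 3.93% of all 28016 tested transcripts were called as higher. The rule used this comparison, so the calls describe the members and are not evidence for them. An unadjusted p under 0.05 was reached by 212 members (82.2%) in edgeR and by 233 (90.3%) in DESeq2, against 17% and 21.6% of all tested. The number called by edgeR depended on the fit and on single libraries. With the 2 compared groups alone it was 0, where 0 of all 25353 transcripts were called and 235 members had an unadjusted p under 0.05. With a replicate block it was 4 (0.164% of all tested were called in either direction). With at least 10 counts in every library it was 63 of 243 members tested (2.68% of all, in either direction). It was 34 without replicate 3 of day 14, 1 without replicate 1 of control or replicate 1 of day 14, 2 without replicate 3 of control, and 0 without replicate 2 of control or replicate 2 of day 14, where 177 and 176 members had an unadjusted p under 0.05. The share of all tested transcripts called in either direction moved as well, from 0.689% with the 12 libraries to 1.15% without replicate 3 of day 14. It was 0.146%, 0.16% and 0.314% without replicates 1, 2 and 3 of control, and 0.15% and 0.0514% without replicates 1 and 2 of day 14. At day 3 the rule kept the ratio of each member to control within 1.5, so that a call at more than 2-fold was all but barred by the choice of members. Accordingly 0 members were called by edgeR and 0 by DESeq2, where 0.0143% and 6.27% of all tested transcripts were called, and nothing is read from these counts. An unadjusted p under 0.05 at day 3 was reached by 4 members in edgeR and 7 in DESeq2, against 16.7% and 21.1% of all tested.

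The 20 members called at day 14 were not the 20 with the largest ratios. Their ratios ran from 2.04 to 41.1 and their mean control levels from 0.449 to 52.2 TPM, and 4 of them were among the 8 with the largest ratios. In 19 of the 20, each day 14 library was above the other 9, against 59.7% of the 258. The highest day 14 TPM exceeded the lowest by a median factor of 1.63 in these 20 and of 1.88 in the 258. These traits follow in part from the call of the 20, since the test favours a large difference and a small spread. ENSRNOT00000066477.4, which came first among them by adjusted p and is given here after its values were seen, had 1.44, 1.32 and 2.16 TPM in control, 2.03, 1.81 and 1.62 TPM at day 1, 2.79, 2.56 and 3.06 TPM at day 3, and 7.85, 11.4 and 6.57 TPM at day 14. Its day 14 libraries differed by a factor of 1.73 and each lay above the other 9, at a ratio of 3.63.

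The 561 transcripts that met the day 14 condition but had a day 3 ratio above 1.5 differed from the members in day 3 by construction. Their median ratio was 1.57 at day 1, against 1.15 for the members, and it was above 1.5 at day 1 in 320 of them (57%), against 48 of the 258 members (18.6%). In the single day 1 libraries their median ratio was 1.17, 1.43 and 2.07, where that of the members was 0.832, 1.24 and 1.30. The day 1 libraries were all above the control libraries in 153 of the 561 (27.3%) and in 20 of the members (7.75%). The median ratio at day 14 was 2.90 against 2.48, and the median of the mean levels in control was 4.54 TPM against 4.71 TPM. Replicate 3 was the lowest day 14 library in 74.9% of the 561 and in 59.7% of the members. These differences between the sets were not tested. The comparisons with control use the same control libraries as the day 3 ratio. The split at day 3 therefore partly set the differences in these ratios and in the separation of day 1 from control.

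The rule did not use the length or the identifier of a transcript. The members were between 246 and 21709 bases long, with a median of 2542 bases and an upper quartile of 4236 bases, against 2425 and 3641 bases for the 14560 transcripts. The median of the 561 was 3326 bases. Of the member identifiers, 73 (28.3%) were in their first version, against 29% of the 14560. The effective length, with which Salmon corrects TPM for the fragments of a library, differed between day 14 and control by a median of 0.186% and by at most 4.53% in the members.

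The rule cut through a dense range. Just inside the limit of 2 at day 14, ENSRNOT00000016361.7 had 7.82, 20.6 and 20.2 TPM in control and 40.7, 36.8 and 22.9 TPM at day 14, a ratio of 2.0. ENSRNOT00000064297.4 had 22.9, 20.6 and 21.2 TPM in control and 64.8, 24.5 and 43.4 TPM at day 14. ENSRNOT00000109932.1 had 3.37, 3.18 and 6.66 TPM in control and 14.5, 6.75 and 8.21 TPM at day 14. In each of these 3 the lowest day 14 library was just above the highest control library. Just outside, ENSRNOT00000098840.1 had 32.9, 48.6 and 50.1 TPM in control and 97.9, 97.3 and 70.2 TPM at day 14, a ratio of 1.99. ENSRNOT00000091520.2 had 4.21, 18.0 and 25.8 TPM in control and 30.0, 33.8 and 34.9 TPM at day 14. ENSRNOT00000103182.1 had 5.31, 11.1 and 7.53 TPM in control and 21.4, 16.2 and 13.0 TPM at day 14. These 3 did not overlap with control either, and were left out by less than 0.01 in the ratio. There were 32 members with a ratio between 2 and 2.1, and 50 transcripts that met the rest of the rule had a ratio between 1.9 and 2. At day 3, 47 members had a ratio between 1.4 and 1.5, and 51 transcripts between 1.5 and 1.6 were left out. A further 38 transcripts met both ratios and were left out because a day 14 library did not exceed each control library.

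The labels name Rattus rattus as the organism beside the strain Sprague-Dawley, which is a strain of the brown rat. The submitters' processing notes name the build rn6 and the methods of the study an index of Ensembl transcripts of mRatBN7.2. No position in the genome is given for the members, since the files list none.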

How the data were processed

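RNA was measured in 12 libraries, grouped by the labels into control, day 1, day 3 and day 14. The authors selected polyadenylated RNA and quantified transcripts with Salmon (version not given in the sources used here), after quality control with FastQC 0.11.3. The deposited estimated count is the number of reads Salmon assigned to a transcript, not normalized. The deposited TPM was scaled by the authors' Salmon run for effective length and to a sum of 1000000 per library.

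The members and lists were chosen with earlier results of these data known. The rule was applied to the TPM values with Python 3.11.15 and pandas 2.3.3. After rounding to whole numbers, the estimated counts of the 12 libraries were fitted together, 1 test per transcript, with the quasi-likelihood method of edgeR 4.0.16 (R 4.3.3). Low counts were filtered with filterByExpr, library sizes were scaled with TMM, and glmQLFit was run in its robust form. DESeq2 is named in the submitters' processing notes, and version 1.42.0 was run here as an alternative. Other alternatives were upper-quartile and RLE scaling, other filters, fits of the 2 compared groups, a replicate block, and leaving out each library. The edgeR step was also run on simulated counts, from which no conclusion is drawn here.

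Transcripts were named by this rule: the 8 largest ratios and the 6 highest means at day 14, members called at day 1 (there were 0 in edgeR, 18 with an unadjusted p under 0.05, and 0 in DESeq2), the 4 largest and 4 smallest ratios at day 1, and 3 on each side of the day 14 limit. Others are marked as chosen after their values were seen. Gene lists and cell type markers had been planned for the case that symbols could be matched, and were not used. The methods of the study state 3 biological replicates per condition. The p-values set a difference between groups against the spread between these libraries, and the main fit took no account of pairing by rat. With 3 libraries against 3, an exact permutation test cannot give a p below 0.1. How well Salmon could place reads shared by forms of 1 gene is not recorded in the tables.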

Additional observations from a re-analysis of the deposited data

Results flagged for a closer look

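In 7 members (2.71%, against 3.65% of the 14560 transcripts that passed the filters) the 3 day 1 libraries were all below the 3 control libraries, while the 3 day 14 libraries were all above them by the rule. The share at day 1 was not above that of all transcripts. Of these, 2 are among the named members. In ENSRNOT00000056414.5 the 3 day 1 libraries were below the 3 control libraries, at a ratio of 0.571, and the 3 day 14 libraries were above them, at a ratio of 3.29. In ENSRNOT00000078910.2, the most abundant member, the ratios were 0.709 at day 1 and 2.32 at day 14, with the same separation. The day 14 side was fixed by the choice of members, and the difference between the days was not tested in any of the 7. Groups of 3 libraries were not searched for single outlying values.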

How the results depend on the processing

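The number of members depended on the limits of the rule. It was 730 with a day 14 ratio of at least 1.5, 70 with at least 3, and 136 with a day 3 ratio between 0.8 and its inverse. With each library of control, day 3 or day 14 left out in turn it was between 247 and 378. Leaving out each day 1 library, an alternative chosen after seeing the data, gave between 257 and 268. Of the 258 members, 94 (36.4%) were chosen with each of the 12 libraries left out. With TMM-scaled CPM in place of TPM there were 314, of which 178 were shared, 69% of the members and 56.7% of the 314. The members called by edgeR at day 14 numbered 20 (0.689% of all tested transcripts were called in either direction), against 145 with DESeq2 (6.23% of all), 63 with at least 10 counts in every library (2.68% of all, 243 members tested) and 13 without a filter (0.43% of all). With the 2 compared groups alone in edgeR 0 members and 0 of all 25353 transcripts were called, and 235 members had an unadjusted p under 0.05. With the replicate block 4 members were called (0.164% of all). Same-numbered libraries deviated together in 1 of 18 pairs (r over 0.1, median r -0.0132). This does not settle whether any of them came from the same rat, since libraries of 1 rat need not deviate together. With 1 library left out the calls ranged from 0 to 34. The cause was not tested. At day 1, 0 members were called by edgeR and DESeq2 in each fit run, with between 10 and 44 members at an unadjusted p under 0.05. The count at day 3 was also 0 in each (between 1 and 11 at an unadjusted p under 0.05), which the day 3 range of the rule all but fixed and which shows no stability. The median ratio at day 1 stayed between 1.06 and 1.29. The log2 change of ENSRNOT00000051589.4 at day 1 ranged from -0.02 without replicate 3 of day 1 to 2.97 without replicate 1, since the former library held its highest level. Of the 21 members named by the naming rule, 4 were called at day 14. Their calls were lost in 29 of 52 refits, while the others of the 21 gained a call in 13. ENSRNOT00000066477.4, called and named after its values were seen, is not in these counts. In 15 members a library had under 10 estimated reads.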
